A study of Homo sapiens with 18 samples.

Results

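Messenger RNA after 15 days of G0S2 induction was set against messenger RNA after 3 days in MDA-MB-231, an estrogen receptor negative human breast cancer line. The comparison takes 6 of the 18 libraries of the series: 3 from cells kept on doxycycline (0.5 ug/ml) over 15 days and 3 from cells kept on it over 3 days. All 14308 genes listed for the line were included. Another 3 libraries of the line, without doxycycline (day 0, called control here), give the level before induction, and 9 libraries of T47D, an estrogen receptor positive line treated in the same way, give a second line for comparison. The labels describe doxycycline-driven G0S2 and do not state whether the 3 libraries of a group are separate cultures, so the spread behind each p-value may be technical. The series' design text speaks of "Aza resistant" lines, which the sample labels do not mention, and the sample labels were followed. Length of induction, length of doxycycline exposure and time in culture cannot be told apart in this comparison, and cells given doxycycline without the introduced gene were not analysed here.

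G0S2 protein binds and inhibits ATGL (gene PNPLA2), the enzyme that takes the first step in breaking down the triglycerides of lipid droplets. Fatty acids and cholesterol that cells make themselves come from enzymes whose genes are switched on by the SREBP transcription factors. INSIG proteins hold SREBP precursors in the endoplasmic reticulum when sterols are plentiful, and the LXR receptors, activated by oxysterols, switch on SREBF1 and the cholesterol exporter ABCA1.

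Lipid genes supplied more of the falls than any other group. SCD, FASN, FADS2, SREBF1, INSIG1 and ABCA1 were all lower at day 15 than at day 3, while the spindle genes TTK, SGO2, TPX2, BUB1 and KIF20A were higher. CYP1B1 and NQO1, both targets of the aryl hydrocarbon receptor, were higher at day 15, and the cystatin CST1 showed the largest fall. Most of these differences were small: the median size over the genes that changed was 0.20 on the log2 scale.

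Promoters are shown for genes of the groups that moved together: SCD of fatty acid synthesis, LSS and DHCR7 of cholesterol synthesis, and SGO2 and BUB1 of mitosis. Each runs from 250 bases before the gene's start to 50 bases after it, 5′ to 3′ on the gene's strand, from RefSeq on GRCh38.p14. Capitals mark the CCAAT box, CCAAT or its reverse complement ATTGG, and in SGO2 also the core of the interferon-stimulated response element. That core is a pair of short A-rich runs with a gap, and the SGO2 match is to its reverse complement, so the capitals there are T-rich. The cholesterol pair was chosen after the values were seen. FADS2, ABCA1 and SREBF1 held none of the motifs searched in the same window, so each promoter printed holds a CCAAT box while those of these 3 lipid genes that fell do not, and they are not printed.
SCD, chr10:100346983-100347282, plus strand: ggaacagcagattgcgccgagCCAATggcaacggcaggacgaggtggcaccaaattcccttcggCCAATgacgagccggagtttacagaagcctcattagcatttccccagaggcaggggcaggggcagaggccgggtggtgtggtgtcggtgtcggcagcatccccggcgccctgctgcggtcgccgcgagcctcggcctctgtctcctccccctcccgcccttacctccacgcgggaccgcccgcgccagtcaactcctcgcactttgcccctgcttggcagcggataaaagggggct
LSS, chr21:46228725-46229024, minus strand: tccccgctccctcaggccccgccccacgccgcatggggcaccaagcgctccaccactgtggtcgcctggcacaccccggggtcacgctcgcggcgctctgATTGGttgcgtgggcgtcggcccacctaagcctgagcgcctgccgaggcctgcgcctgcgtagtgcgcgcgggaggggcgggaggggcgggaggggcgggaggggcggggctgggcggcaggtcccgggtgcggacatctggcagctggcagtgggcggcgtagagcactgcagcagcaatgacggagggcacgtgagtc
DHCR7, chr11:71448344-71448643, minus strand: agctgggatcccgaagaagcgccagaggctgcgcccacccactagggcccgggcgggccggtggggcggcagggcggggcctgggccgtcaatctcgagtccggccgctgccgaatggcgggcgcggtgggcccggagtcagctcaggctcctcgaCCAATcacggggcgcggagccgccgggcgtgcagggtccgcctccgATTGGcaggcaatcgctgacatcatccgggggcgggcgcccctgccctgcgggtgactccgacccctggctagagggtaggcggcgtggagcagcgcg
SGO2, chr2:200525892-200526191, plus strand: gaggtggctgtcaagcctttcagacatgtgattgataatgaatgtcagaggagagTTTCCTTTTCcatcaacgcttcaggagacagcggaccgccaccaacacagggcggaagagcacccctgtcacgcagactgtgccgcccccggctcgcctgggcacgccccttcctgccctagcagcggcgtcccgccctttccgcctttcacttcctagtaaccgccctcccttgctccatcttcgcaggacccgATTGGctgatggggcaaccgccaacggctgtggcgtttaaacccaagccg
BUB1, chr2:110678014-110678313, minus strand: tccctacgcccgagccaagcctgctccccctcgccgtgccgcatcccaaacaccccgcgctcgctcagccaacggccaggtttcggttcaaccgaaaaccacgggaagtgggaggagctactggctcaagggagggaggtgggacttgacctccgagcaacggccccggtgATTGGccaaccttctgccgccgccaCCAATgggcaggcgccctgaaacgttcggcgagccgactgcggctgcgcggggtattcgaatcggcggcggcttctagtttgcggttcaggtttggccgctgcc
The CCAAT box is bound by the NF-Y factor, a partner of SREBP at sterol genes and of cell cycle regulators at mitosis genes. It was present in 12 of the 16 cholesterol synthesis genes with a promoter entry (75.0%) and in 36 of 49 mitosis genes (73.5%), in 9 of 18 fatty acid synthesis genes (50%) and in 7 of 16 sterol regulators and transporters (43.8%), against 36.7% of the 10789 listed genes that have an entry. Among all genes that fell it was in 21 of 54 (38.9%), and among all that rose in 7 of 17 (41.2%), both close to the share over listed genes. The cell cycle homology element, searched only as TTTGAA or TTCAAA, was in 36 of 49 mitosis promoters (73.5%) and in 9.75% of listed genes. It was in 0 of the 3 mitosis genes that rose and have an entry. Other spellings of the element were not searched and 3 promoters are few, so nothing is read from that 0. The sterol regulatory element, searched as TCACNCCAC or its reverse complement, was in 0 of the 54 promoters of genes that fell. It was in 1 of the 17 of genes that rose, TIPARP, and in 117 of 10789 listed genes (1.08%). At so low a share nothing is read from the 0. The interferon element core was in 2 of those 54 and in 1 of the 17 promoters of genes that rose, against 2.95% of listed genes. The AP-1 site, searched as TGANTCA, was in 1 of the 54 and in 2 of the 17, against 4.93%. These matches describe letters in a fixed window on both strands and say nothing of binding.

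G0S2 remained induced at both times. Its level was 1209, 1294 and 1103 CPM (reads scaled by library size) in the day 15 libraries, against 1484, 1506 and 1429 CPM in the day 3 libraries, and 25.5, 25.02 and 25.1 CPM in control libraries. The day 15 libraries all lay below the day 3 libraries, and both sets lay far above control. G0S2 fell by 0.30 on the log2 scale between the times (SE 0.0459, limma adjusted p = 0.00554), and its largest adjusted p with 1 library left out was 0.0297. It was not called when limma was run on the 6 induced libraries alone (adjusted p = 0.0835). The gene lies on chromosome 1, from 209675420 to 209676388 on the plus strand of GRCh38, and reads of the introduced copy and of the cell's own gene cannot be told apart in these values.

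**Figure D1:**
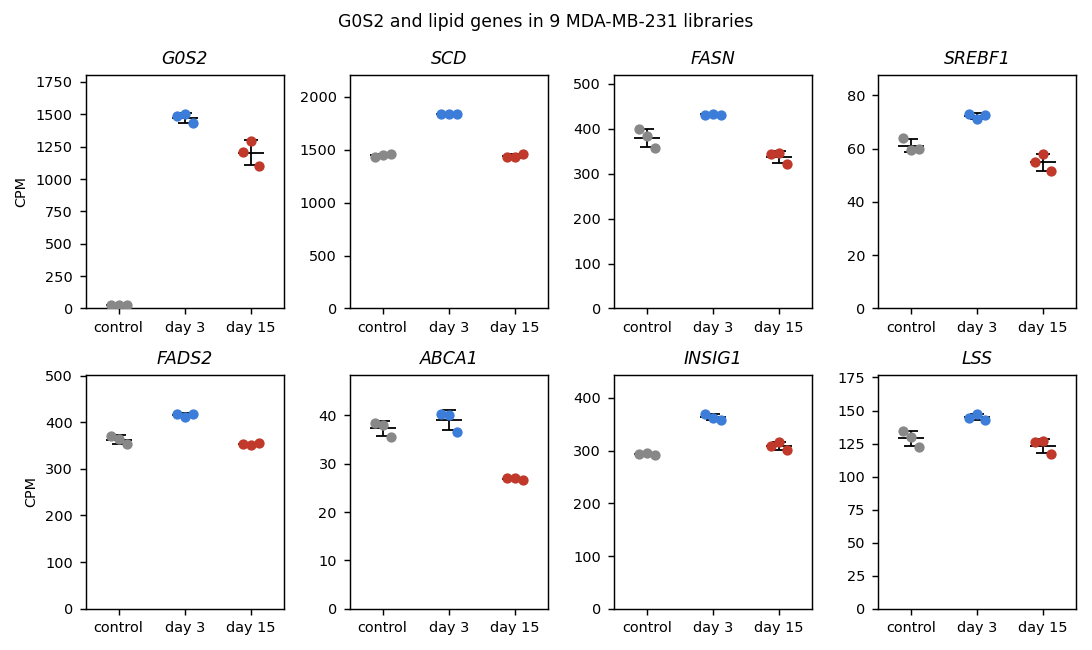
Level in CPM (y axes, from 0) of G0S2 and 7 lipid genes in the control, day 3 and day 15 libraries of MDA-MB-231; points are the 3 libraries of a group, and bars are the mean ± SD. In each panel the day 15 libraries lie below the day 3 libraries, and for SCD they lie at the control level.

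The 9 libraries held between 37.0 and 52.4 M reads in listed genes, and limma's adjusted p was under 0.05 for 763 of the 14308 genes (5.33%), 354 higher (2.47%) and 409 lower (2.86%) at day 15. With 1 library left out that count moved between 124, without replicate 1 of day 3, and 1664, without replicate 2 of day 15. The words rose, fell and changed are therefore kept for genes whose adjusted p was under 0.05 with all 9 libraries and, in the same direction, in each of the 9 fits that left 1 out. By that rule 94 genes changed (0.657%), of which 24 rose (0.168%) and 70 fell (0.489%). The day 15 libraries did not overlap the day 3 libraries for all 94 of them, as for 3585 genes of the whole table (25.1%). Only 4 of the 94 differed by more than 1.5-fold, and the median log2 difference over all listed genes was -0.01. Without limma's trend and robust options 32 genes were called, 22 of the 94 among them. The day 15 libraries were not uniform. A chi-square between the reads of 2 libraries, per degree of freedom, was 5.911 for replicates 2 and 3 of day 15. It was 2.934 for replicates 1 and 2 of day 15. Between replicate 2 of day 15 and replicates 1, 2 and 3 of day 3 it was 3.847, 3.755 and 3.772.

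**Figure D2:**
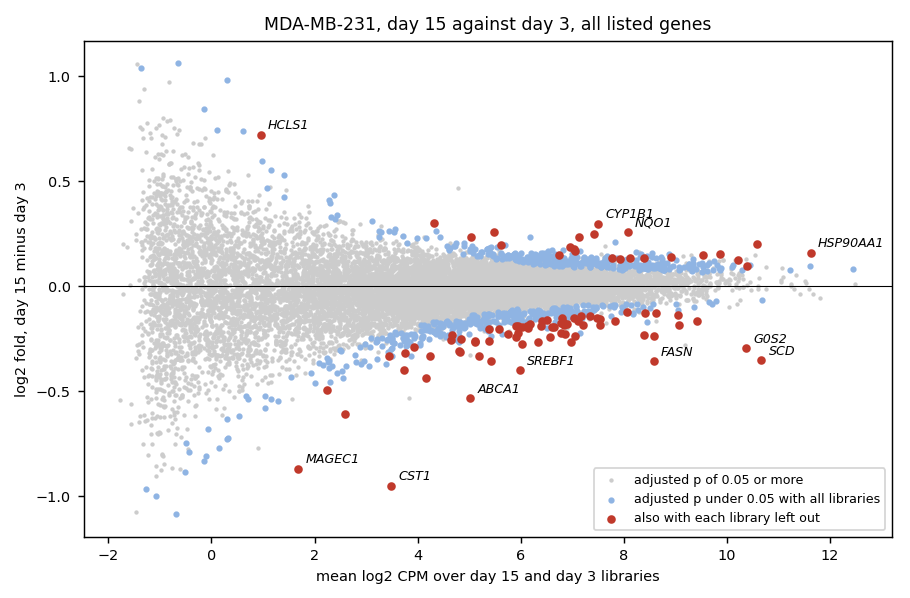
Log2 fold, day 15 minus day 3 (y axis), against the mean log2 CPM of the 6 libraries (x axis) for 14308 genes; grey points have an adjusted p of 0.05 or more, blue points an adjusted p under 0.05, and red points also an adjusted p under 0.05 with each library left out. Red points below 0 outnumber those above it, 70 to 24, and all 94 lie within 1 log2 unit of 0.

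Fatty acid synthesis genes made the largest group of falls by count. Of the 20 listed genes for fatty acid synthesis and desaturation, 6 fell and none rose, 9 had an adjusted p under 0.05, all lower, and the median was -0.07, with 16 of the 20 below 0. Over all listed genes 0.489% fell, 2.86% were lower with an adjusted p under 0.05, and 7579 of 14308 lay below 0. With 1 library left out the count of 9 lay between 6 and 9. SCD, which places the double bond that makes oleate from stearate, had 1429.9, 1430.3 and 1461 CPM at day 15, against 1839, 1837 and 1841 CPM at day 3 and 1433, 1452 and 1457 CPM in control. The day 15 libraries did not overlap the day 3 libraries and lay at the control level. SCD fell by 0.35 (SE 0.0178, adjusted p = 3.5e-13).

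FASN, which builds palmitate from malonyl-CoA, had 343, 347 and 322 CPM in day 15 libraries, against 430.0, 434 and 432 CPM in day 3 libraries, and fell by 0.36 (SE 0.0325, adjusted p = 1.36e-06). FADS2, the first desaturase on the path to long polyunsaturated fatty acids, had 353, 351 and 355 CPM at day 15, against 418, 410.4 and 418 CPM at day 3, and fell by 0.24 (SE 0.023, adjusted p = 2.73e-07). In both genes the day 15 libraries lay wholly below the day 3 libraries. ACLY, which makes cytosolic acetyl-CoA from citrate, fell by 0.14 (adjusted p = 0.00119), ACSS2, which makes it from acetate, by 0.19 (adjusted p = 0.00401), and ACSL1, which activates fatty acids, by 0.15 (adjusted p = 0.0032).

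Cholesterol synthesis genes were lower in the same libraries. Of the 21 genes of that pathway 4 fell and none rose, 8 had an adjusted p under 0.05, all lower, and the median was -0.10, with 19 below 0. The shares over all listed genes were 0.489% for falls and 2.86% for genes called lower. With 1 library left out the count of 8 lay between 4, without replicate 1 of day 3, and 10, and it was 5 without replicate 2 of day 3 or replicate 1 of day 15. LSS, which closes the sterol ring to form lanosterol, had 126, 127 and 117 CPM in day 15 libraries, against 145, 148 and 143 CPM in day 3 libraries, with no overlap. It fell by 0.24 (SE 0.0337, adjusted p = 0.000123). DHCR7, which takes a late step to cholesterol, fell by 0.18 (adjusted p = 0.000801), FDPS, which makes farnesyl pyrophosphate, by 0.16 (adjusted p = 0.000801), and MSMO1, a sterol demethylase, by 0.12 (adjusted p = 0.0032). SQLE, which oxidises squalene, differed by 0.01 (SE 0.041, adjusted p = 0.936), so the difference was not uniform along the pathway.

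Regulators and transporters of sterols gave 5 falls among 20 listed genes and no rise, with 9 at an adjusted p under 0.05, all lower, a median of -0.11 and 19 of 20 below 0, and between 5, without replicate 1 of day 3, and 9 with 1 library left out. All listed genes together gave 0.489% falls and 2.86% called lower. SREBF1, which encodes the SREBP form that drives fatty acid genes, had 54.99, 57.8 and 51.6 CPM at day 15, against 73.1, 70.9 and 72.7 CPM at day 3, and fell by 0.40 (SE 0.0388, adjusted p = 2.73e-07). INSIG1, the sterol-sensing retention factor, had 309, 315 and 301 CPM at day 15, against 369.5, 362 and 358 CPM at day 3, and fell by 0.23 (SE 0.0237, adjusted p = 4.62e-07). Neither gene's day 15 libraries overlapped its day 3 libraries. SREBF2, the form that drives cholesterol genes, differed by -0.14 (adjusted p = 0.00447, at most 0.0536 with 1 library left out).

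ABCA1, which exports cholesterol to lipoproteins, had 26.99, 26.9 and 26.7 CPM in day 15 libraries, against 40.3, 39.99 and 36.6 CPM in day 3 libraries, and 38.4, 37.9 and 35.6 CPM in control libraries. The day 15 libraries lay below both other groups, which overlapped each other. ABCA1 fell by 0.53 (SE 0.0448, adjusted p = 1.94e-08). With SREBF1 it makes 2 falls among 10 listed LXR targets, a list added after the values were seen. In that list 5 had an adjusted p under 0.05, all lower, and the median was -0.18. That count of 5 was 2 without replicate 1 of day 3, and 3 without replicate 2 of day 3 or replicate 1 or 3 of day 15. Over all listed genes 0.489% fell and 2.86% were called lower. Both falls are also counted among the sterol regulators and transporters. Nothing is read from the counts in a list made with the values known.

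The lipid genes stood at different places relative to control, as the values of 3 comparisons that share libraries show. On the log2 scale SCD was -0.01 at day 15 and 0.35 at day 3 relative to control. INSIG1 was 0.07 and 0.31 at those times, and FADS2 was -0.04 and 0.20. FASN was -0.17 at day 15 and 0.19 at day 3, and SREBF1 was -0.16 and 0.24, so both values lay below control at day 15. Over the whole lists, the median relative to control was 0.02 at day 15 and 0.12 at day 3 for cholesterol synthesis, and -0.02 and 0.07 for fatty acid synthesis, against 0.00 at both times for all listed genes. These values share the control libraries and the day 3 libraries, so they are not independent of each other.

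Genes for storage and breakdown of fat gave 1 fall, while over all listed genes 0.489% fell and 5.33% had an adjusted p under 0.05. PNPLA2, the target of G0S2 protein, had 35.6, 33.3 and 31.9 CPM in day 15 libraries, against 37.3, 37.4 and 38.01 CPM in day 3 libraries, with a difference of -0.16 (SE 0.0435, adjusted p = 0.0289) whose adjusted p reached 0.15 with 1 library left out. PLIN2, a lipid droplet coat protein, had 64.2, 65.1 and 61.8 CPM at day 15, against 64.6, 63.2 and 63.5 CPM at day 3, a difference of 0.00 (SE 0.0329, adjusted p = 0.987). Its libraries overlapped between the times. Of the 13 listed lipolysis and droplet genes none changed. LPL, PNPLA2 and MGLL, a lipase of monoglycerides, were the 3 with an adjusted p under 0.05, LPL higher and the others lower, and the list's median was -0.02. That count of 3 was 0 without replicate 1 or 2 of day 3 or replicate 3 of day 15, and 1 without replicate 3 of day 3. Of the 26 genes of fatty acid oxidation and PPAR control none had an adjusted p under 0.05, with a median of 0.00. Of the 21 genes of triglyceride and phospholipid synthesis only LPIN1, which makes diacylglycerol, fell, by 0.17 (adjusted p = 0.00102), while 4 had an adjusted p under 0.05, 3 lower and 1 higher, and the median was -0.06. That count of 4 was 1 without replicate 1 of day 3, and 2 without replicate 2 of day 3 or replicate 1 of day 15.

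Secreted lipases were mixed. LIPG, which releases fatty acids from lipoprotein phospholipids, had 15.1, 15.7 and 15.2 CPM at day 15, against 20.2, 21.3 and 20.8 CPM at day 3, and fell by 0.44 (SE 0.0551, adjusted p = 2.04e-05). LIPH, which makes lysophosphatidic acid, fell by 0.33 (SE 0.0531, adjusted p = 0.000505). LPL, which acts on lipoprotein triglycerides, had 2.46, 2.66 and 2.81 CPM at day 15, against 1.56, 1.85 and 1.94 CPM at day 3, a difference of 0.55 whose adjusted p of 0.0198 became 0.127 with 1 library left out. These 3 genes are the listed members of a group put together after the values were seen.

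Several genes of cell division rose. Of 57 mitosis genes 5 rose and none fell, 26 had an adjusted p under 0.05, all higher, and the median was 0.09, with 54 above 0, against 6729 of all 14308 listed genes (47%). Of all listed genes 0.168% rose and 2.47% were called higher. The count of 26 lay between 6 and 37 with 1 library left out. It was 6 without replicate 1 of day 3, 7 without replicate 2 of day 3, 12 without replicate 1 of day 15, 13 without replicate 3 of day 15 and 17 without replicate 2 of control. The number that rose also moved with the settings: it was 5, against 2 in the 6 induced libraries alone, 3 with voom or with a filter at a mean log2 CPM of 1, 7 under median scaling, 11 with library weights, 22 with the replicate number as a block term and 0 without limma's trend and robust options. TTK, a kinase of the spindle checkpoint, had 133, 131 and 134 CPM in day 15 libraries, against 113, 115 and 122 CPM in day 3 libraries, with no overlap, and rose by 0.19 (SE 0.032, adjusted p = 0.00102). BUB1, another checkpoint kinase, had 291, 291 and 293 CPM at day 15, against 265, 266 and 265 CPM at day 3, and rose by 0.14 (SE 0.0228, adjusted p = 0.000925). The 3 libraries of each group lay within 2 CPM of each other for that gene, and the groups were apart.

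SGO2, which protects cohesin at centromeres, rose by 0.18 (adjusted p = 0.00362), TPX2, a spindle assembly factor, by 0.15 (adjusted p = 0.00539) and KIF20A, a kinesin of cytokinesis, by 0.13 (adjusted p = 0.00368). Their largest adjusted p with 1 library left out was 0.0432 for SGO2, 0.0499 for TPX2 and 0.0377 for KIF20A. Over the mitosis list the median relative to control was 0.05 at day 15 and -0.04 at day 3. Against control, limma's adjusted p at day 15 was 0.00282 for TTK, 0.00412 for BUB1 and 0.0439 for SGO2, all higher. It was 0.199 for TPX2 and 0.206 for KIF20A, at differences of 0.06 and 0.05. These comparisons share libraries with day 15 against day 3. MKI67, the proliferation marker, had 1366, 1314 and 1492 CPM at day 15, against 1273, 1249 and 1292 CPM at day 3, and its difference of 0.13 had an adjusted p of 0.209. CCND1, the G1 cyclin, differed by 0.01 (SE 0.0187, adjusted p = 0.784) and MYC by -0.01 (SE 0.0277, adjusted p = 0.86). Of 18 genes for G1 cyclins, their kinases and inhibitors none changed. Cell numbers per culture and growth rate were not analysed here.

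Other growth-related lists had fewer changes than mitosis. Over all listed genes 0.657% changed, so no change in lists this short is near that share. Of all listed genes 2.47% were higher with an adjusted p under 0.05, and 47% lay above 0. Of 51 DNA replication genes none changed, 10 had an adjusted p under 0.05, all higher, and 42 lay above 0. That count of 10 was 1 without replicate 1 or 2 of day 3, 2 without replicate 1 of day 15, 4 without replicate 3 of day 15, and 5 without replicate 3 of day 3 or replicate 2 of control. Of 34 DNA repair genes none changed, and 6 had an adjusted p under 0.05, all higher. That count of 6 was 1 without replicate 1 or 2 of day 3 or replicate 1 or 3 of day 15, and 3 without replicate 2 of control. Among 75 cytosolic ribosomal proteins RPS4X rose by 0.12 (adjusted p = 0.000352) and RPS25 by 0.13 (adjusted p = 0.00235), 22 had an adjusted p under 0.05, all higher, and the median was 0.03, with pseudogene copies making single members uncertain. That count of 22 lay between 2 and 28 with 1 library left out: 2 without replicate 1 of day 3, 4 without replicate 2 of day 3, 9 without replicate 3 of day 15, and 14 without replicate 1 of day 15 or replicate 3 of day 3. Ribosome biogenesis (30 genes) and the spliceosome (40 genes) had 6 and 8 genes at an adjusted p under 0.05, all higher, and no gene that changed. The 6 of ribosome biogenesis were 0 without replicate 1 or 2 of day 3, 1 without replicate 1 of day 15, 2 without replicate 3 of day 15 and 10 without replicate 2 of day 15. The 8 of the spliceosome were 0 without replicate 1 or 2 of day 3 or replicate 3 of day 15, 2 without replicate 1 of day 15, 3 without replicate 2 of control and 15 without replicate 2 of day 15. Replication-dependent histones had a median of -0.07, with 9 of 10 listed genes below 0 and none at an adjusted p under 0.05.

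**Figure D3:**
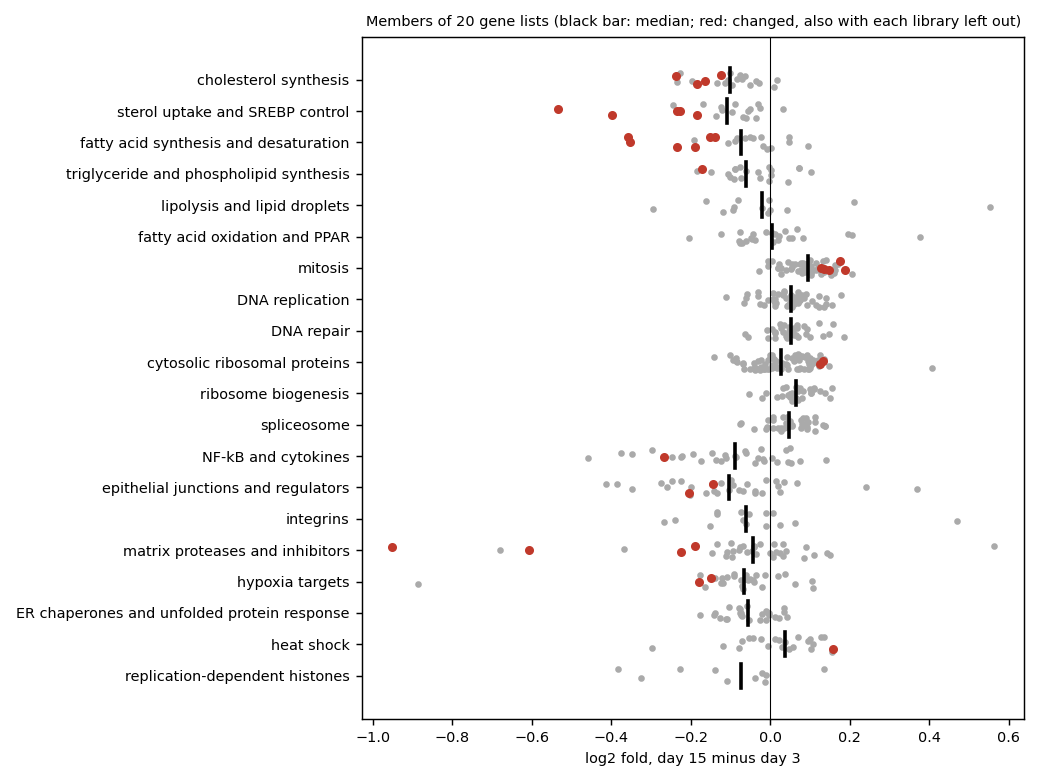
Log2 fold, day 15 minus day 3 (x axis), of the listed members of 20 gene lists (rows); grey points are members that did not change, red points members that changed also with each library left out, and the black bar is the median. Sterol and fatty acid rows lie mostly left of 0 with all their red points there, and the mitosis row lies right of 0.

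The rises included genes of the response to xenobiotics and oxidants. CYP1B1, which oxidises estradiol and aromatic hydrocarbons, had 205, 195 and 201 CPM in day 15 libraries, against 162, 164 and 163 CPM in day 3 libraries, and 139, 140.1 and 145 CPM in control. The 3 groups did not overlap. CYP1B1 rose by 0.30 (SE 0.0266, adjusted p = 6.22e-08). NQO1, a quinone reductase under NRF2 and the aryl hydrocarbon receptor, had 288, 305 and 289 CPM at day 15, against 249.9, 249 and 239 CPM at day 3, and rose by 0.26 (SE 0.0265, adjusted p = 5.74e-07). TIPARP, an enzyme that represses the aryl hydrocarbon receptor, rose by 0.15 (adjusted p = 0.004). CYP1A1, the textbook target of the receptor, had 5.87, 5.27 and 5.64 CPM at day 15, against 4.40, 4.16 and 4.16 CPM at day 3, and its difference of 0.39 (adjusted p = 0.0139) had an adjusted p of up to 0.0735 with 1 library left out.

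That list of receptor targets was put together after the values were seen: 3 of its 6 listed genes rose, and its median was 0.20. Nothing is read from that count, because the list was made with the values known. Over all listed genes 0.168% rose. AHR itself had a difference of -0.06 (SE 0.0266, adjusted p = 0.164). In the list of NRF2 and pentose phosphate genes 2 of 29 rose, NQO1 and FTH1, the ferritin heavy chain, which rose by 0.20 (adjusted p = 0.00405), and the median was -0.01, with 15 below 0. MT2A, a metal-binding metallothionein, rose by 0.17 (adjusted p = 0.0011). Among 23 heat shock genes HSP90AA1, the inducible cytosolic HSP90, rose by 0.16 (adjusted p = 6.44e-05).

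Other rises were of single genes. HCLS1, a cortactin relative of blood cells, had 2.20, 2.59 and 2.51 CPM at day 15, against 1.44, 1.61 and 1.30 CPM at day 3. It rose by 0.72 (SE 0.153, adjusted p = 0.00724), the largest rise, at a level of under 3 CPM, and is named here after its value was seen. ARHGDIB, an inhibitor of small GTPases, had 184, 178 and 198 CPM at day 15, against 155, 153 and 164 CPM at day 3, and rose by 0.25 (SE 0.034, adjusted p = 0.000125). Neither gene's groups overlapped. EVI2A rose by 0.23, INSYN2B by 0.26, TTC14 by 0.30 and CINP, a partner of cyclin-dependent kinases, by 0.23. NT5E, the ecto-enzyme that makes adenosine, rose by 0.15 (adjusted p = 2.43e-05) and CAV1, the caveolar coat protein, by 0.09 (adjusted p = 0.0033).

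The largest falls were of secreted protease inhibitors and a germline gene. CST1, a salivary cystatin that inhibits cysteine proteases, had 8.26, 7.26 and 8.48 CPM in day 15 libraries, against 14.7, 15.4 and 16.5 CPM in day 3 libraries, and 18.2, 18.4 and 17.5 CPM in control. All 3 groups were apart. CST1 fell by 0.95 (SE 0.0672, adjusted p = 5.67e-10). CST4, its close relative, had 4.76, 4.27 and 5.40 CPM at day 15, against 7.11, 7.38 and 7.49 CPM at day 3, and fell by 0.61 (SE 0.0899, adjusted p = 0.000179). CST3, the cystatin found in most tissues, fell by 0.22 (SE 0.0321, adjusted p = 0.000123). All 6 listed type 2 cystatins, a list added after the values were seen, had differences below 0, from -0.95 to -0.04, and near-identical members of the family can share reads.

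MAGEC1, a cancer-testis antigen, had 2.25, 2.44 and 2.24 CPM at day 15, against 5.01, 3.80 and 4.09 CPM at day 3, and fell by 0.87 (SE 0.12, adjusted p = 7.3e-05). The groups did not overlap, at low levels. It was the 1 member of 7 listed MAGE genes that fell. TIMP1, an inhibitor of matrix metalloproteinases, fell by 0.19 (adjusted p = 0.00507). So 4 of 36 genes for matrix proteases and their inhibitors fell: CST1, CST4, CST3 and TIMP1, all of them inhibitors. The cystatins among them are those already counted above. Over all listed genes 0.489% fell and 2.86% were called lower. Of the 36, 7 were lower and 2 higher at an adjusted p under 0.05, and 14 lay above 0. With 1 library left out between 4 and 10 were called.

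**Figure D4:**
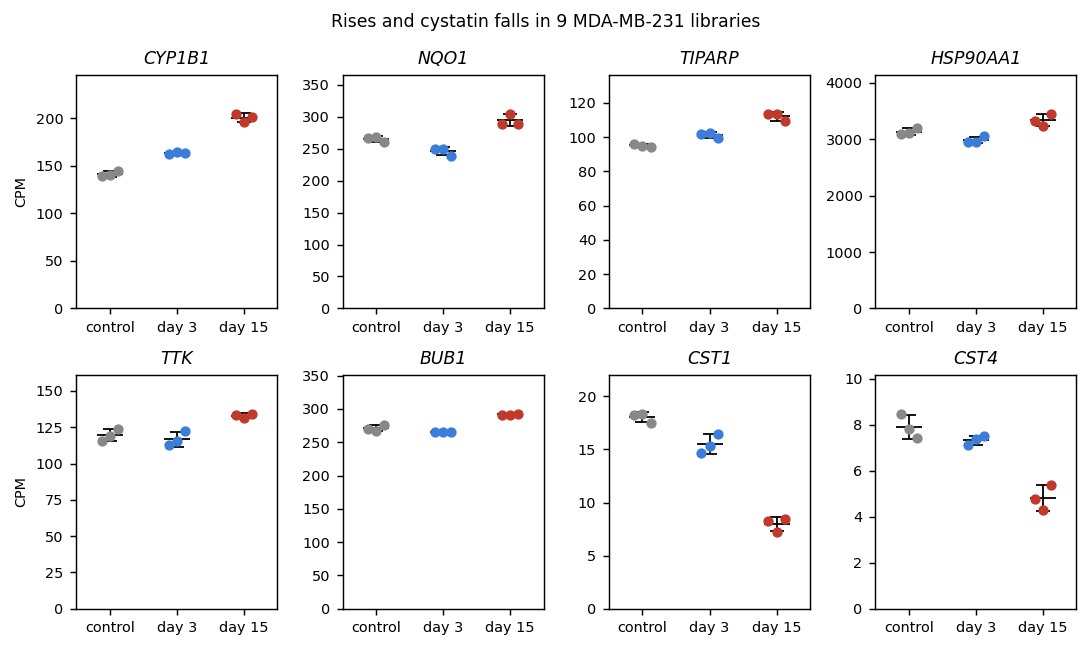
Level in CPM (y axes, from 0) of 6 genes that rose and 2 cystatins that fell in the control, day 3 and day 15 libraries of MDA-MB-231; points are the 3 libraries of a group, and bars are the mean ± SD. CYP1B1 stands highest at day 15 and lowest in control, and CST1 the other way round.

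Surface, junction and matrix genes supplied further falls. MAL2, a protein of apical membrane traffic, had 38.3, 38.5 and 37.3 CPM at day 15, against 47.6, 50.3 and 48.4 CPM at day 3, and fell by 0.36 (SE 0.0365, adjusted p = 5.11e-07). F11R, the tight junction protein JAM-A, fell by 0.20 (adjusted p = 0.00237) and KRT19, a simple epithelial keratin, by 0.14 (adjusted p = 0.00362). They were the 2 of 33 epithelial genes that fell, none rose, 10 had an adjusted p under 0.05, all lower, and the median was -0.10. The shares over all listed genes were 0.489% for falls and 2.86% for genes called lower. That count of 10 lay between 2 and 12 with 1 library left out. It was 2 without replicate 1 or 2 of day 3, and 5 without replicate 1 or 3 of day 15. CDH1, E-cadherin, stood at 0.87, 0.783 and 0.872 CPM at day 15, against 1.10, 0.955 and 0.763 CPM at day 3, a difference of -0.13 (SE 0.186, adjusted p = 0.731), with too few reads for a firm value. VIM, vimentin, had 2444, 2442 and 2481 CPM at day 15, against 2315, 2331 and 2339.5 CPM at day 3, and its difference of 0.08 (adjusted p = 0.0102) had an adjusted p of up to 0.0915 with 1 library left out. COL6A3, a collagen VI chain, was the 1 of 38 mesenchymal and matrix genes that fell, by 0.33 (SE 0.0635, adjusted p = 0.00328).

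Signalling and stress lists gave few changes, as did all listed genes together, of which 0.657% changed. ICAM1, the adhesion molecule under NF-kB, had 32.2, 31.4 and 30.6 CPM at day 15, against 37.7, 38.2 and 37.5 CPM at day 3, and fell by 0.27 (SE 0.0395, adjusted p = 0.000179), the 1 change among 32 NF-kB and cytokine genes. CXCL8, a neutrophil chemokine, had 4.08, 3.94 and 4.42 CPM at day 15, against 6.31, 5.26 and 5.62 CPM at day 3, and its difference of -0.46 reached an adjusted p of 0.0693 with 1 library left out. BST2, the tetherin of the interferon response, fell by 0.19 (adjusted p = 0.00323), 1 of 50 genes of that list. BHLHE40 and NDRG1, both induced by hypoxia, fell by 0.18 and 0.15, 2 of 30 hypoxia targets. LIPA and PSAP, a lysosomal lipase and the precursor of sphingolipid activators, fell by 0.14 and 0.16, 2 of 42 lysosome and autophagy genes. JUND fell by 0.24, TGFBR1 by 0.17 and L1CAM, a neural adhesion molecule named after its value was seen, by 0.27.

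No gene changed among the lists for respiratory chain complex I (38 listed), complexes II to V (39), the citrate cycle (21), the mitochondrial ribosome (42), the proteasome (31), p53 targets (24), integrins (15), antigen presentation (26), glycolysis (23), the ATF4 response (35), amino acid transporters (21), endoplasmic reticulum chaperones (28), Wnt and Notch signalling (31), actin (30) or tubulins (17). Over all listed genes 0.657% changed, so no change in lists this short is near that share. Between 1 and 5 members of each had an adjusted p under 0.05 with all 9 libraries, against 5.33% of all listed genes. With 1 library left out these counts lay between 0 and 9, the 9 in complexes II to V and an 8 in complex I and in the ATF4 response. The counts of 5 were in integrins and antigen presentation, all lower. They lay between 0 and 6 and between 0 and 7 with 1 library left out.

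The label MDA-MB-231 was checked against markers: all 15 identity genes were listed. They summed to 9843 to 9912 CPM at day 15, against 9563 to 9572 CPM at day 3. Of 18 luminal markers 11 were listed, and ESR1, PGR, FOXA1, TFF1, TFF3 and PIP were among those not listed. The 11 summed to 1003 to 1028 CPM at day 15, 1066 to 1078 CPM at day 3 and 1086 to 1153 CPM in control. Luminal markers were thus in part present, and all 11 differences between day 15 and day 3 lay below 0. Fibroblast markers (5 of 11 listed) summed to 15.3 to 15.9 CPM at day 15, against 15.98 to 18.4 CPM at day 3. Leukocyte markers (5 of 12) summed to 190.3 to 195 CPM at day 15, against 184 to 186 CPM at day 3, and endothelial markers (4 of 11) to 89.5 to 94.0 CPM at day 15, against 90.5 to 95.4 CPM at day 3. The part of other cells in these results was not tested.

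Of the 94 genes, 77 were also listed in T47D, and a fit over all 18 libraries tested whether the day 15 minus day 3 difference was unequal in the lines. It was for 26 of the 77, against 524 of all 12666 shared genes (4.14%). The 77 were chosen by their MDA-MB-231 difference, which is one side of the difference tested, so a share above that of all genes comes with the choice and nothing is read from it. SCD differed by -0.35 in MDA-MB-231 and by 0.09 in T47D, and the difference between lines was -0.44 (SE 0.0252, adjusted p = 1.72e-10). INSIG1 differed by -0.23 in MDA-MB-231 and by 0.14 in T47D, a difference between lines of -0.37 (SE 0.0392, adjusted p = 1.58e-06). FADS2, at -0.24 and 0.22 in those lines, gave -0.46 (SE 0.0599, adjusted p = 3.39e-05). In all 3 genes MDA-MB-231 cells were lower at day 15 and T47D cells higher. Within T47D, limma's adjusted p was 0.0362 for SCD, 0.0341 for INSIG1 and 0.0465 for FADS2. The fit within T47D was not repeated with 1 library left out.

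CYP1B1 and NQO1 also differed between lines, by 0.27 (adjusted p = 0.000875) and 0.32 (adjusted p = 1.36e-05). BUB1 differed by 0.14 in MDA-MB-231 and by 0.11 in T47D, a difference between lines of 0.02 (SE 0.0375, adjusted p = 0.806), and ABCA1 by -0.53 in MDA-MB-231 and by -0.05 in T47D, with an adjusted p of 0.354 at a wide error (SE 0.252). LIPH fell in MDA-MB-231, and its T47D difference of -0.52 had an adjusted p of 3.32e-05. G0S2 differed by -0.30 in MDA-MB-231 and by -0.06 in T47D, with a difference between lines of -0.23 (SE 0.383, adjusted p = 0.82). The tables of the lines were normalized separately, so only differences within a line were compared.

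**Figure D5:**
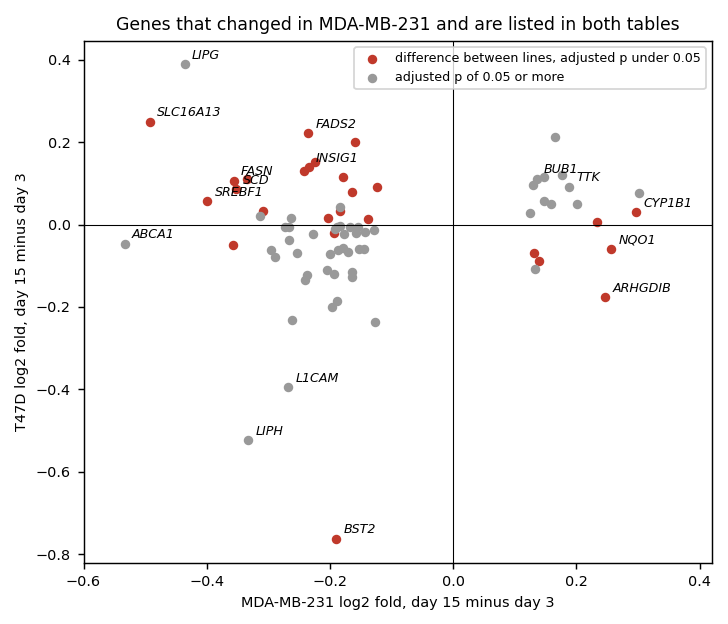
Log2 fold, day 15 minus day 3, in T47D (y axis) against MDA-MB-231 (x axis) for the 77 genes that changed in MDA-MB-231 and are listed in both tables; red points have a difference between lines with an adjusted p under 0.05, grey points do not. SCD, FADS2 and INSIG1 lie left of 0 and above 0, LIPH and L1CAM left of 0 and below 0.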

How the data were processed

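The values used were deposited as log2 CPM (log2 of reads scaled by library size, with a pseudocount) per gene and library, in 1 table for each cell line. The submitters' processing notes name STAR, featureCounts and limma with build GRCh38.p13; their versions, any filter on low values and the strand setting of the counting are not stated in those notes. Every value came out as a whole number of reads within 0.1 read (100%) after taking off a pseudocount worth 3 reads, which gave the depths and the CPM printed.

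limma 3.58.1 (R 4.3.3, statmod 1.5.0) was fitted to the 9 MDA-MB-231 libraries as deposited, with group means as terms, the contrast day 15 minus day 3, trend and robust variance moderation, and Benjamini-Hochberg adjustment over all 14308 genes. Log2 folds understate the change of low genes. The difference between lines used 18 libraries and the 12666 shared genes. The fit was tested on simulated data. Genes named are G0S2, the 12 largest rises and 12 largest falls at a mean log2 CPM of 1 or more, up to 5 changed members of each list with 2 or more, and a panel of 11 genes; others are values of single list members, chosen after their values were seen. Some genes that these rules name are not reported here, and the counts over lists include them. The comparison, the 46 gene lists and the tests were chosen with earlier results of these data known, and 6 further lists were added after the values were seen. Alternatives changed the scaling, the filter on low values, the pseudocount, the variance moderation, the libraries in the fit, library weights, the replicate block and the count model (voom on the recovered reads).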

Additional observations from a re-analysis of the deposited data

Results flagged for a closer look

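For 17 of the named genes the day 15 minus day 3 difference was unequal in MDA-MB-231 and T47D, by limma's test of the difference itself (MDA-MB-231 minus T47D, log2 scale, adjusted over 12666 genes, of which 4.14% were called). All 17 were chosen among genes that changed in MDA-MB-231, and that change is one side of the difference tested. Nothing is therefore read from their number. Among lipid genes the difference between lines was -0.46 for FASN, -0.46 for FADS2, -0.46 for SREBF1, -0.44 for SCD, -0.37 for INSIG1, -0.24 for FDPS and -0.22 for MSMO1. Among genes that rose in MDA-MB-231 it was 0.42 for ARHGDIB, 0.32 for NQO1, 0.27 for CYP1B1 and 0.23 for CINP. Among other genes that fell in MDA-MB-231 it was -0.74 for SLC16A13, a monocarboxylate transporter family member, -0.45 for LRATD2, -0.38 for CST3, -0.31 for MAL2, -0.29 for BHLHE40 and -0.22 for F11R. With 1 of the 12 induced libraries left out, the largest adjusted p was 0.108 for SREBF1, 0.122 for CINP and 0.0546 for SLC16A13, over the threshold of 0.05, and under it for the other 14.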

How the results depend on the processing

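The 94 genes that changed were called with the same sign in all 94 under median scaling, 1 CPM added, library weights, voom on the recovered reads and the replicate block, in 93 under a filter at a mean log2 CPM of 1 and in the 6 induced libraries alone, and in 22 without limma's trend and robust options. The number of genes called was 763, and 32 without those options, 1874 with library weights and 662 with voom; it lay between 124 and 1664 with 1 library left out. It was 124 without replicate 1 of day 3, 143 without replicate 2 of day 3, 308 without replicate 1 of day 15, 319 without replicate 3 of day 15, 503 without replicate 2 of control and 1664 without replicate 2 of day 15. The number that changed under the full rule was 94, and 0, 171 and 60 without those options, with library weights and in the 6 induced libraries. Where that count was 0, 2537 genes had an unadjusted p under 0.05 in the same limma fit to all 9 libraries. With the replicate number as a block term, 1788 genes were called and 430 changed. Deviations of same-numbered day 15 and day 3 libraries correlated at -0.03, 0.14 and 0.19. Those of differently numbered libraries correlated between -0.22 and 0.09. These values do not settle whether the numbers pair the libraries, and the fit behind the 94 genes used no block term. G0S2 differed by -0.30 with an adjusted p of 0.0939 without trend and robust options and -0.30 with 0.0835 in the 6 induced libraries, and by -0.35 to -0.24 with 1 library left out. Genes that differed between lines numbered 524, between 390 and 868 with 1 library left out (868 without replicate 3 of T47D day 15), and 440 to 521 under the other settings. PLIN2, at 0.00, lay between -0.017 and 0.020 with 1 library left out and was above 0 under median scaling (0.0018), library weights (0.0062), voom (0.00014), without replicate 1 of day 3 (0.0079) and without replicate 3 of day 15 (0.020). Genes that changed in other lists numbered 2, and 9 with library weights and 18 with the block for cytosolic ribosomal proteins, and 2, and 0 in the 6 induced libraries and 9 with the block for epithelial genes. The causes were not tested. Genes under a few CPM are limited by depth.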

Other observations

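Genes outside the lists also fell by the same rule, and they are named here after their values were seen. GPC1, a cell surface heparan sulfate proteoglycan, had 24.7, 26.4 and 24.6 CPM in day 15 libraries, against 32.9, 30.4 and 30.8 CPM in day 3 libraries, and fell by 0.31 (SE 0.0485, limma adjusted p = 0.000335). ABCA2, a lipid transporter of the family of ABCA1, had 24.6, 27.2 and 23.4 CPM at day 15, against 31.7, 31.5 and 29.96 CPM at day 3, and fell by 0.31 (SE 0.0515, adjusted p = 0.000818). The groups did not overlap in either gene. DDR1, a collagen receptor, fell by 0.26 (adjusted p = 0.00234), LAMA5, a laminin chain, by 0.23 (adjusted p = 0.00464), GSN, the actin-severing protein gelsolin, by 0.27 (adjusted p = 7.88e-05) and CEMIP, a hyaluronan-degrading factor, by 0.22 (adjusted p = 0.000166). GRN, the precursor of the lysosomal granulins, fell by 0.19 (adjusted p = 0.00283) and GAS6, a ligand of TAM receptors, by 0.18 (adjusted p = 0.00159).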
